A study of Mus musculus with 23 samples.

Results

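T cells that carried 1 productive beta chain together with 2 productive alpha chains were examined in the lymph nodes (LN) of WT mice and of mice with the Y665F change in STAT5B. A cell barcode was called dual-alpha when its T-cell receptor (TCR) table held exactly 1 productive TRB row and exactly 2 productive TRA rows, and single-alpha when it held exactly 1 row of each. Of 24223 barcodes of these kinds in 7 LN TCR libraries, 2674 were dual-alpha and 21549 were single-alpha. The cells were thus selected on a measured value, the number of chain rows recovered per barcode, and their having 2 alpha chains is not a finding. The study placed the leukemia-associated Y665F substitution in the SH2 domain of STAT5B, a transcription factor that acts downstream of cytokine receptors, into the mouse Stat5b gene by CRISPR/Cas9 editing with a donor oligonucleotide. The edited animals were made in C57BL/6N mice, and the labels give the strain of the LN libraries as C57BL/6 and the age as 2 months: 2 were WT, 3 were heterozygous (Y665F het) and 2 were homozygous (Y665F homo) for the change. None of the mice carried another listed allele or received a listed agent, and no sort is given for the lymph node cells. CD45+ cells were isolated from spleens for the single-cell work, and the study's text names spleen in one place and lymph nodes in another for the same data, so whether this step applied to the LN libraries is unclear. For each TCR library a gene expression (GEX) library was made from the same droplets, and the barcode joined them. The labels do not say whether a library held 1 mouse or several, and a figure legend speaks of a combined sample of several mice per group, so p-values over libraries measure the spread between libraries, which may be technical.

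The alpha chain of the TCR is assembled in the thymus from a V (TRAV) and a J (TRAJ) segment, on both copies of chromosome 14. Rearrangement starts at TRAJ segments near the TRAV cluster, and further rounds on the same chromosome replace the joint with an upstream TRAV and a downstream TRAJ. Because the alpha locus is not strictly limited to a single chromosome, in contrast to the beta locus, a T cell can keep 2 productive alpha chains, which is called allelic inclusion. In mm10 the annotated TRAV segments lie at chr14:52427928-53977678, the 60 annotated TRAJ segments at chr14:54155005-54218842 and the constant segment Trac at chr14:54220521-54224206, all in this order on the plus strand.

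The sequences of 5 dual-alpha receptors seen in more than 1 barcode, the first 5 when ordered by barcodes and then by UMIs, are shown. In these the same beta and the same alpha pair recurred in separate barcodes. Whether such barcodes were separate cells was not tested. Of 2651 different dual-alpha receptors (the beta and both alpha chains matched by V gene and CDR3 nucleotides), 21 were seen in 2 or more barcodes of a library, 2 of them in 3 barcodes and 19 in 2 barcodes, and 0 were seen in more than 1 library. Each line gives the CDR3 coding sequence of a chain as deposited, 5′ to 3′, with the bases that match the germline J segment in capitals. Alpha 1 is the alpha chain with more unique molecular identifiers (UMIs, tags that count transcripts) and alpha 2 the chain with fewer. The first receptor was held by 3 barcodes of Y665F het replicate 3. Its TRAJ44 (chr14:54173690-54173750) and TRAJ39 (chr14:54179962-54180024) lie 5 positions and 6.27 kb apart in the TRAJ array. Of the 3 barcodes, 1 was classed in the GEX library, where neither Cd4 nor a Cd8 gene was detected. The others were not among the barcodes kept in the GEX library and so had no class.
receptor 1 beta, TRBV19 with TRBJ2-1: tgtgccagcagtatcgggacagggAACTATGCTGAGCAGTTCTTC
receptor 1 alpha 1, TRAV8N-2 with TRAJ39: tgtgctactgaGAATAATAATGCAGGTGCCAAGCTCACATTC
receptor 1 alpha 2, TRAV7N-5 with TRAJ44: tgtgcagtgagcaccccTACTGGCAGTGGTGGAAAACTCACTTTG

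The second receptor was also held by 3 barcodes of Y665F het replicate 3, none of them classed in the GEX library. Both of its alpha chains used TRAJ11 (chr14:54207139-54207197), near the 3′ end of the array, with different TRAV segments and with CDR3 lengths of 21 and 39 bases.
receptor 2 beta, TRBV20 with TRBJ1-6: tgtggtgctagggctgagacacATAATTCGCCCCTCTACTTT
receptor 2 alpha 1, TRAV6N-6 with TRAJ11: tgcgccgggagACTCACTTTT
receptor 2 alpha 2, TRAV9N-3 with TRAJ11: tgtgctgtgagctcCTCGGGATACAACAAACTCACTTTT

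The other 3 receptors were each held by 2 barcodes. In Y665F het replicate 3, both barcodes of receptor 10 fell in the CD8 gate (Cd8a or Cd8b1 detected, Cd4 not), and its TRAJ26 (chr14:54194490-54194549) and TRAJ13 (chr14:54205741-54205797) lie 13 positions and 11.3 kb apart, the widest of the 5. Also in Y665F het replicate 3, receptor 16 joined adjacent segments near the 5′ end of the array, TRAJ50 (chr14:54167590-54167652) and TRAJ49 (chr14:54168686-54168747), and a further barcode with the same beta chain showed only 1 of these alpha chains. In Y665F homo replicate 2, both barcodes of receptor 21 fell in the CD4 gate (Cd4 detected, Cd8a and Cd8b1 not), and its TRAJ27 (chr14:54192303-54192361) and TRAJ21 (chr14:54198790-54198846) lie 6 positions apart.
receptor 10 beta, TRBV13-1 with TRBJ1-1: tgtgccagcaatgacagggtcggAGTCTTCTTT
receptor 10 alpha 1, TRAV7D-3 with TRAJ13: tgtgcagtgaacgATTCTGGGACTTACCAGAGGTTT
receptor 10 alpha 2, TRAV1 with TRAJ26: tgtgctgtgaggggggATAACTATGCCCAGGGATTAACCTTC
receptor 16 beta, TRBV17 with TRBJ2-5: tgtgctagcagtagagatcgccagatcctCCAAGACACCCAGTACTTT
receptor 16 alpha 1, TRAV6N-7 with TRAJ49: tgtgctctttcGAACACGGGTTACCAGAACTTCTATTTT
receptor 16 alpha 2, TRAV16 with TRAJ50: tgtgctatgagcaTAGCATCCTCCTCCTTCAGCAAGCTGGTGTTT
receptor 21 beta, TRBV12-2+TRBV13-2 with TRBJ2-7: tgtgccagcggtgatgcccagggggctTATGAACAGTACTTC
receptor 21 alpha 1, TRAV8-1 with TRAJ21: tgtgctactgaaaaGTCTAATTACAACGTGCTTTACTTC
receptor 21 alpha 2, TRAV13N-4 with TRAJ27: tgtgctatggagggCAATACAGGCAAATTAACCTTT

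The label of these barcodes as T cells was checked in the GEX libraries. After barcodes with under 200 genes or over 10% mitochondrial UMIs were left out, 2581 dual-alpha and 20421 single-alpha barcodes remained. All 6 T-cell marker genes were present in dual-alpha barcodes of every library, and 73.2 to 100% of these barcodes held a UMI of the list. Trac, Trbc1 and Trbc2 of this list are the transcripts whose chains selected the barcodes, and the other 3 genes, Cd3d, Cd3e and Cd3g, were found in 66.9 to 100% of dual-alpha and 66.4 to 99.4% of single-alpha barcodes. Levels are given in CPM, counts scaled to the total of the same kind of barcode in a library. Summed levels of natural killer markers were 2.71 to 14.7 CPM and of gamma-delta T-cell markers 0 to 21.5 CPM in dual-alpha barcodes. Barcodes with no TCR row, at a median of 303 to 1947 UMIs against 447 to 3653 in dual-alpha barcodes, held a UMI of a Cd3 gene in 4.45 to 19.8%. B-cell markers summed to 580 to 1468 CPM in dual-alpha and to 560 to 1454 CPM in single-alpha barcodes, and 13.9 to 60.6% and 14.2 to 57.1% of them held a UMI of the list. In barcodes with no TCR row these values were 36240 to 42123 CPM and 85.8 to 95.4%. A UMI of the myeloid list was found in 5.20 to 29.2% of dual-alpha and 5.33 to 28.7% of single-alpha barcodes. GEX depth differed widely, with 2621583 to 16101373 UMIs per library and a median of 368 to 3116 UMIs per barcode, lowest in Y665F het replicate 3 and Y665F homo replicate 1. TCR libraries held 3255 to 6524 barcodes, of which 94.5 to 98.9% were also in their GEX library. Pairs of TCR libraries shared 12 to 42 barcodes, none of them with a shared CDR3, and 0 to 3 dual-alpha barcodes.

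The first question was whether the share of dual-alpha cells differed by genotype. Among barcodes with 1 beta chain and 1 or 2 alpha chains, dual-alpha barcodes made up 10.3% in WT replicate 1 and 9.89% in WT replicate 2. They made up 10.6%, 10.4% and 12.03% in Y665F het replicates 1, 2 and 3. In Y665F homo replicates 1 and 2 they made up 12.5% and 11.3%. Both WT libraries were thus below all 5 mutant libraries, while Y665F het and Y665F homo overlapped. The exact binomial (Clopper-Pearson) 95% intervals, which cover counting error only, ran from 9.20 to 11.5% in WT replicate 1, from 9.07 to 10.8% in WT replicate 2, from 11.5 to 13.6% in Y665F homo replicate 1 and from 10.2 to 12.4% in Y665F homo replicate 2. The last overlapped both WT intervals. Genotype means were 10.1% ± 0.295 (SD, n = 2) in WT, 11% ± 0.901 (SD, n = 3) in Y665F het and 11.9% ± 0.886 (SD, n = 2) in Y665F homo. The shares were ordered by genotype in a two-sided exact permutation test of the Jonckheere-Terpstra statistic over 7 libraries (p = 0.0286, where 0.00952 is the smallest the design allows), with Y665F homo 1.80 percentage points above WT. The order did not pass when rows with under 3 UMIs were left out (p = 0.0762, exact test), nor without WT replicate 1, WT replicate 2, Y665F het replicate 1, Y665F het replicate 2 or Y665F homo replicate 1 (p from 0.0667 to 0.1), when 1.17 to 2.01 points separated Y665F homo from WT.

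**Figure D1:**
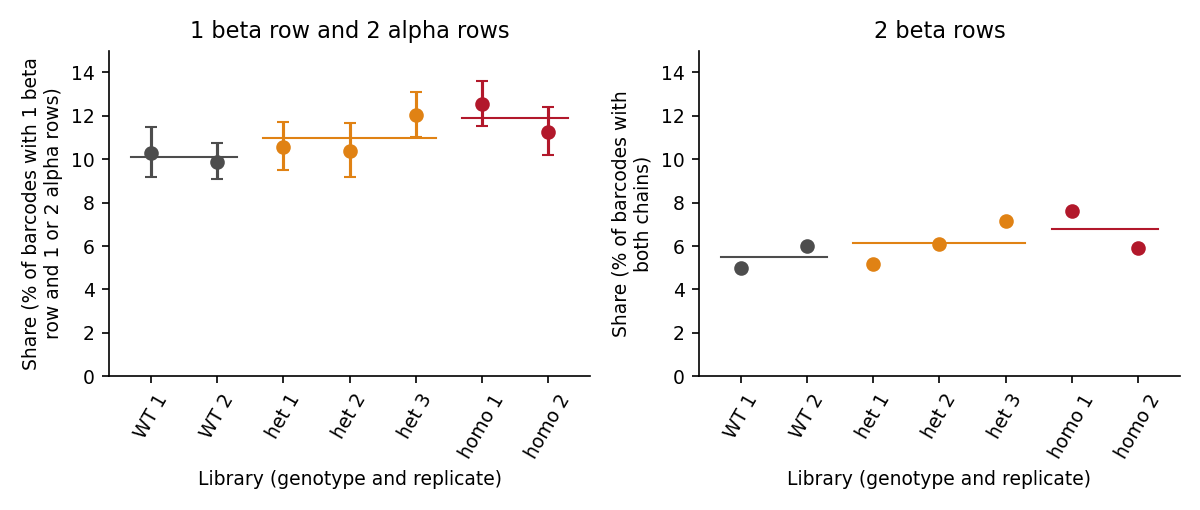
Left, share of dual-alpha barcodes among barcodes with 1 beta and 1 or 2 alpha chains (y axis, percent) in each of the 7 LN TCR libraries (x axis; WT grey, Y665F het orange, Y665F homo red), with bars for exact 95% binomial intervals and lines for genotype means; right, share of barcodes with 2 beta chains among barcodes with both chains. On the left the WT libraries sit at 9.89 and 10.3%, below the 5 mutant libraries, which run from 10.4 to 12.5%.

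Recovery of a second chain depends on how many transcripts were captured, so depth was looked at beside these shares. The median number of UMIs per alpha row in a library was 5 in all 7 libraries, but the means differed. In single-alpha barcodes the mean alpha UMIs were highest in Y665F het replicate 3 (6.102) and Y665F homo replicate 1 (5.994), close to WT replicate 1 (5.978). They were lowest in Y665F homo replicate 2 (5.262), whose dual-alpha share was above both WT libraries. Mean beta UMIs of single-alpha barcodes were highest in Y665F homo replicate 1 (13.96) and Y665F het replicate 3 (13.09). The share of barcodes with 1 beta and no alpha chain ran from 13.3% to 20.6% with no detected order by genotype (exact p = 0.648). Among barcodes with at least 5 beta UMIs, a measure of capture that the selection did not use, the dual-alpha share was 10.2% and 10.3% in WT, 10.9%, 10.9% and 12.4% in Y665F het and 12.6% and 11.6% in Y665F homo (exact p = 0.0286). When 6 alpha UMIs were drawn from every barcode that had at least 6, an alternative added after the data were seen, the expected share was 17.3 to 17.99% in WT, 18.6 to 20.03% in Y665F het and 20.8 to 21.6% in Y665F homo. That draw kept only 43.6 to 53.6% of barcodes and lost more single-alpha than dual-alpha barcodes, because the latter have more alpha UMIs, and the share kept was lowest in Y665F homo replicate 2. Its order by genotype is therefore not a depth-corrected result. Barcodes with 2 beta chains, which are counted apart from dual-alpha cells, made up 5% and 5.99% of barcodes with both chains in WT. They made up 5.16%, 6.08% and 7.15% in Y665F het replicates 1 to 3, and 7.62% and 5.91% in Y665F homo replicates 1 and 2 (exact p = 0.276). Y665F het replicate 3 and Y665F homo replicate 1, the highest here, also had the highest dual-alpha shares and the lowest GEX depth. Their mean alpha and beta UMIs in single-alpha barcodes were the highest as well. Of their barcodes with 2 beta chains, 31.1% and 29.1% had 2 alpha chains, against 22.1 to 28.0% in the other libraries. The part of these differences between libraries in the order by genotype was not tested.

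A droplet that captured 2 cells can also show 2 alpha chains. Dual-alpha barcodes held slightly more GEX UMIs than single-alpha barcodes, with a ratio of medians of 1.01 to 1.07, above 1 in 7 of 7 libraries (two-sided exact sign-flip permutation p = 0.0156, the smallest possible). Barcodes with 2 beta and 2 alpha chains, of which there were 432, had a ratio of 1.59 to 1.92 to single-alpha barcodes. Cd4 was detected together with Cd8a or Cd8b1 in 19 of 2581 dual-alpha barcodes (0.736%), in 100 of 20421 single-alpha barcodes (0.490%) and in 27 of 427 barcodes with 2 chains of each kind (6.32%). The mean within-library difference between dual-alpha and single-alpha barcodes was 0.242 points (exact sign-flip p = 0.203). B-cell genes (at least 2 UMIs) were found in 2.21% of dual-alpha and 2.31% of single-alpha barcodes. No doublet caller was run. With the barcodes that showed these signs left out, the dual-alpha share was 10.3% and 9.81% in WT, 10.4 to 12.05% in Y665F het and 12.6% and 11.2% in Y665F homo.

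In the TCR libraries the transcripts of each chain were counted in UMIs. In dual-alpha barcodes the first alpha chain had a median of 6 to 7 UMIs and the second of 3 to 4, against 5 for the alpha chain of single-alpha barcodes. Both alpha chains together had 1.82 to 1.99 times the mean UMIs of the alpha chain in single-alpha barcodes, whereas the beta chain had 1.01 to 1.12 times the mean of single-alpha barcodes. The barcodes were selected for 2 alpha rows and 1 beta row, and the alpha chains were named first and second by their UMIs. These values follow in part from those choices and are a description with no test. A second alpha chain with only 1 or 2 UMIs was seen in 20.1 to 26.6% of dual-alpha barcodes.

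The second alpha chain was then looked for in the GEX libraries, a result added after the data were seen. A UMI of the V gene of the second alpha chain was found in 24.6% and 29.5% of dual-alpha barcodes in WT replicates 1 and 2, in 42.6%, 36.6% and 10.6% in Y665F het replicates 1 to 3, and in 11.2% and 21.7% in Y665F homo replicates 1 and 2. The lowest shares were in Y665F het replicate 3 and Y665F homo replicate 1, the libraries with the fewest GEX UMIs. The V gene of the first alpha chain was found in 12.9 to 49.7%, and that of single-alpha barcodes in 11.4 to 47.5%. In barcodes whose TCR rows did not name the V gene in question, a UMI of it was found in 0.0406 to 0.342%, so the value for the second alpha chain was 125 to 276 times this background. Its detection was a mean of 25.3%, beside 26.98% for the alpha chain in single-alpha barcodes. The barcodes were selected on these transcripts in the same droplets and the second chain was defined as that with fewer UMIs, so these values are a description with no test. In 211 of 2520 dual-alpha barcodes whose alpha chains used different V genes, the GEX library held UMIs of both. The TCR and GEX libraries come from the same droplets, so this measure cannot tell 1 cell with 2 alpha chains from 2 cells in a droplet.

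**Figure D2:**
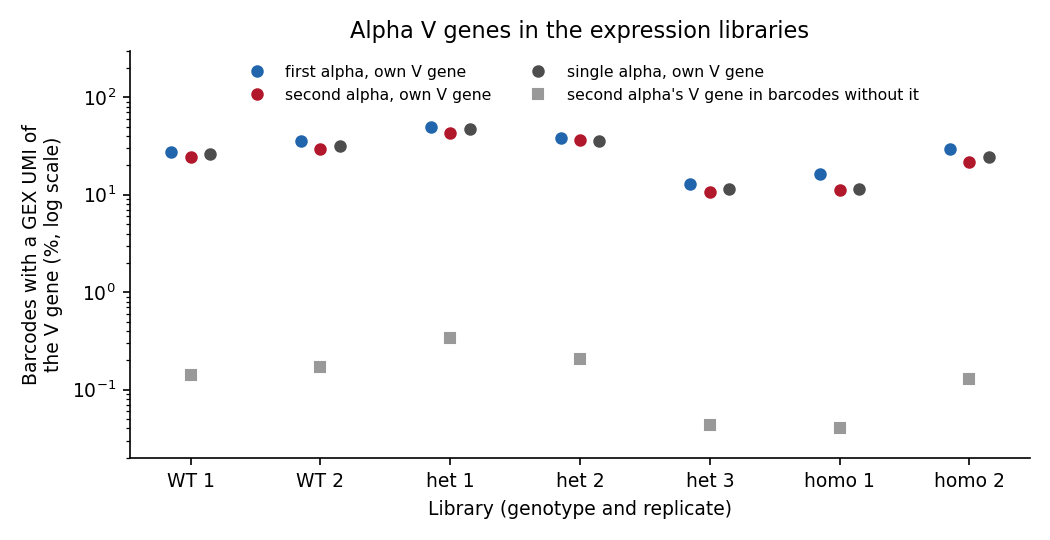
Share of barcodes with a GEX UMI of the V gene named by the TCR row (y axis, percent, log scale) in each library (x axis), for the first and second alpha chain of dual-alpha barcodes, the alpha chain of single-alpha barcodes, and the background in barcodes that did not name that V gene. The second alpha chain runs from 10.6 to 42.6%, close to the other chains of the same library, and the background stays at or under 0.342%.

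The 2 alpha chains of a cell used TRAJ segments that lay close to each other. TRAJ segments were numbered by their place in the array, from 1 next to the TRAV cluster to 60 next to Trac, and 43 of the 60 were used. The mean distance between the TRAJ positions of a dual-alpha barcode was 8.41 and 8.67 in WT replicates 1 and 2, 7.64, 7.94 and 8.80 in Y665F het replicates 1 to 3, and 8.47 and 8.09 in Y665F homo replicates 1 and 2. Alpha chains of different dual-alpha barcodes of the same library were 14.9 to 15.9 positions apart. The difference was -7.12 ± 0.626 positions (SD, n = 7 libraries), below 0 in 7 of 7 libraries, and every within-cell mean was below every between-cell mean (exact sign-flip p = 0.0156, the smallest possible). In 69.0 to 74.5% of dual-alpha barcodes the TRAJ segments lay within 10 positions, against 39.1 to 42.0% between barcodes. In 4.86 to 8.63% both alpha chains used the same TRAJ segment. The median separation on the chromosome was 6.60 to 8.18 kb. As a description over the barcodes of a library (247 to 506), Pearson's r between the TRAJ positions was 0.622 to 0.728.

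The pattern can be seen by dividing the array into 3 stretches of 20 positions. Where the first alpha chain used positions 1 to 20 (593 barcodes), the second used the same stretch in a mean of 62.4% over libraries, positions 21 to 40 in 34.0% and positions 41 to 60 in 3.54%. Where the first used positions 41 to 60 (721 barcodes), these values were 3.59%, 38.3% and 58.1% in the order of the array. A pair with 1 TRAJ at each end of the array was thus uncommon in either direction.

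**Figure D3:**
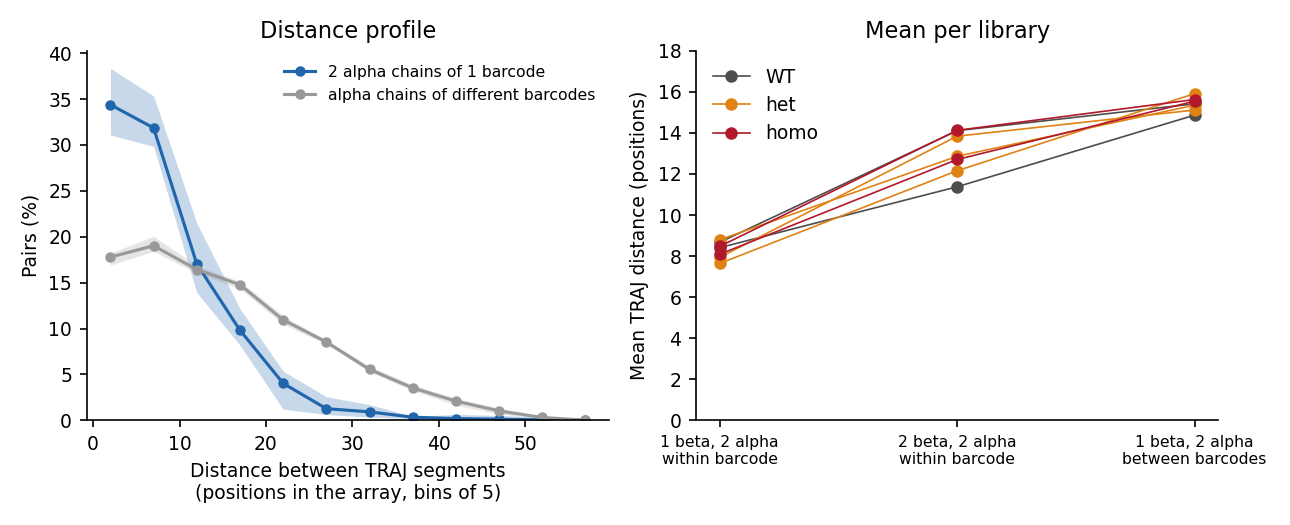
Left, share of alpha chain pairs (y axis, percent) by distance in TRAJ array positions (x axis, bins of 5) within dual-alpha barcodes (blue) and between them (grey), as means of 7 libraries with bands from the lowest to the highest library. Right, mean TRAJ distance (y axis, positions) for each library, coloured by genotype and joined by a line, within dual-alpha barcodes (7.64 to 8.80), within barcodes with 2 beta and 2 alpha chains (11.4 to 14.1) and between dual-alpha barcodes (14.9 to 15.9).

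The closeness of the TRAJ segments was not limited to well covered chains. In dual-alpha barcodes whose second alpha had 1 or 2 UMIs, within-cell minus between-cell distance was -6.72 positions as a mean of 7 libraries, and in those with 3 or more UMIs it was -7.23 positions. In barcodes with 2 beta and 2 alpha chains, the distance was 11.4 to 14.1 positions and r was 0.0727 to 0.399. In these, within-cell minus between-cell distance was -2.39 positions, which was 4.72 positions above the value in dual-alpha barcodes (above in 7 of 7 libraries, exact sign-flip p = 0.0156). Among the 21 receptors seen in 2 or more barcodes, the TRAJ distance had a median of 6 positions, and 13 of the 21 pairs lay within 10.

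TRAV segments were also closer within a cell than between cells, but by a small margin. Over the 128 annotated TRAV positions, the mean within-cell distance was 32.6 and the between-cell distance 36.5, a difference of -3.86 ± 1.25 (SD, n = 7 libraries, 7 of 7 below 0, exact sign-flip p = 0.0156), with r from 0.0846 to 0.218. The TRAJ relation did not differ detectably by genotype: Y665F homo minus WT was -0.704 positions in the distance difference (exact p = 0.276) and 0.0188 in r (exact p = 0.648). It was present in both gates, with a mean distance of 8.19 positions in the CD4 gate (7.08 to 8.86 over libraries, 17 to 86 barcodes each) and 8.31 in the CD8 gate (7.35 to 9.25, 87 to 189 barcodes each).

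The position of dual-alpha chains in the array was compared with that of single-alpha chains. The mean TRAJ position was 32.2 in dual-alpha and 31.3 in single-alpha barcodes, further from the TRAV cluster in 6 of 7 libraries by 0.863 positions (exact sign-flip p = 0.0469). The mean TRAV position was 1.41 lower, that is further from the TRAJ array, in 6 of 7 libraries (exact p = 0.0313), with the value in Y665F het replicate 3, -3.75, beyond those of the other libraries (-1.80 to 0.149). Neither difference stayed past the threshold when any library other than Y665F homo replicate 2 was left out, with exact p from 0.0625 to 0.0938 for TRAJ and of 0.0625 for TRAV, where the mean without Y665F het replicate 3 was -1.02.

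Single segments were then compared between dual-alpha and single-alpha barcodes with edgeR's quasi-likelihood test, with the library as a block and Benjamini-Hochberg adjustment. Of 67 TRAV segments tested, 14 passed an adjusted p of 0.05 (20.9%), 8 of them higher and 6 lower in dual-alpha barcodes. Fewer TRAV segments passed in DESeq2 and without WT replicate 2, as given in the last section. Of 43 TRAJ segments, 6 passed (14%), 4 higher and 2 lower. TRBV use did not differ detectably: 0 of 21 segments passed in edgeR (0%), 0 had an unadjusted p under 0.05, and DESeq2 called 0. The TRAV segments most used in dual-alpha barcodes were TRAV6D-6 (4.31% of alpha rows), TRAV7D-2 (3.57%), TRAV6N-7 (3.37%), TRAV12D-3 (3.32%) and TRAV3N-3 (3.30%). Of these only TRAV6N-7 differed from single-alpha barcodes (2.56% of rows, log2 fold change 0.43, SE 0.13, edgeR adjusted p = 0.00637). The most used beta segment was TRBV3, at 8.53% of rows in dual-alpha and 8.57% in single-alpha barcodes.

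The largest differences were in rare TRAV segments. TRAV15D-1-DV6D-1 (chr14:52863299-52863936), a segment that can join to alpha or delta genes, made up 0.880% and 0.307% of alpha rows in dual-alpha barcodes of WT replicates 1 and 2, 0.319%, 1.21% and 0.428% in Y665F het replicates 1 to 3, and 0.494% and 1.36% in Y665F homo replicates 1 and 2. In single-alpha barcodes it made up 0.0566 to 0.141%, below every dual-alpha value. It was seen in 35 dual-alpha rows against 18 single-alpha rows, although all alpha rows of dual-alpha barcodes were 19.9% of the total (log2 fold change 2.87, SE 0.47, edgeR adjusted p = 1.76e-07). TRAV13N-3 (chr14:53337122-53337639) made up 0.107 to 1.62% of rows in dual-alpha and 0 to 0.202% in single-alpha barcodes, higher in 7 of 7 libraries (log2 fold change 2.49, SE 0.43, edgeR adjusted p = 3.99e-07).

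TRAV11 (chr14:53519303-53519859) is the V segment that, joined to TRAJ18, makes the alpha chain of invariant natural killer T (iNKT) cells. It made up 0.352 to 1.18% of alpha rows in dual-alpha barcodes and 0.0586 to 0.337% in single-alpha barcodes, and was higher in dual-alpha barcodes in 7 of 7 libraries (log2 fold change 2.12, SE 0.36, edgeR adjusted p = 3.02e-07). Its partner is given as counts pooled over libraries, with no test. TRAJ18 was joined to it in 1 of 48 dual-alpha rows (2.08%) and in 18 of 45 single-alpha rows (40%). Of these 18, 8 were in WT replicate 2. The 48 dual-alpha rows used 18 different TRAJ segments. Of these 48 rows, 34 were of the second alpha chain. The median was 3 UMIs in the 48 rows and 5 in the 45 single-alpha rows. The TRAV1 with TRAJ33 pair of mucosal-associated invariant T cells was seen in 0 of 2674 dual-alpha and 14 of 21549 single-alpha barcodes, counts too low to compare.

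Further TRAV segments differed by smaller amounts. TRAV7N-5 (1.51% against 0.846% of rows), TRAV12-3 (2.14% against 1.41%) and TRAV13N-4 (0.801% against 0.446%) were higher in dual-alpha barcodes, each in 6 of 7 libraries, with edgeR adjusted p from 0.000428 to 0.0161. TRAV5-4 (1.28% against 2.09%) and TRAV16 (1.25% against 1.87%) were lower in 7 of 7 libraries, and TRAV9N-3 (1.31% against 2.04%) in 5 of 7. Many mouse TRAV segments exist as near-identical copies, named with D or N, so the assignment of a row to a copy is uncertain.

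Among TRAJ segments, TRAJ35 (chr14:54183774-54183838) showed the largest difference. It made up 0.704% and 1.02% of alpha rows in dual-alpha barcodes of WT, 0.958%, 1.21% and 1.93% in Y665F het, and 1.19% and 1.22% in Y665F homo, whereas it made up 0.264 to 0.486% in single-alpha barcodes. The groups did not overlap (log2 fold change 1.77, SE 0.21, edgeR adjusted p = 9.56e-11). TRAJ28 (1.501% against 0.686% of rows), TRAJ2 (0.882% against 0.530%) and TRAJ31 (6.20% against 5.07%) were higher in dual-alpha barcodes in 7 of 7 libraries. TRAJ57 (1.20% against 2.14%) and TRAJ49 (2.50% against 3.57%) were lower in 7 of 7, and both are among the first 20 positions of the array, next to TRAV. In dual-alpha cells, 0 of 38 TRAV segments differed between Y665F homo and WT in edgeR (0%), with 2 at an unadjusted p under 0.05 and 0 called by DESeq2.

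**Figure D4:**
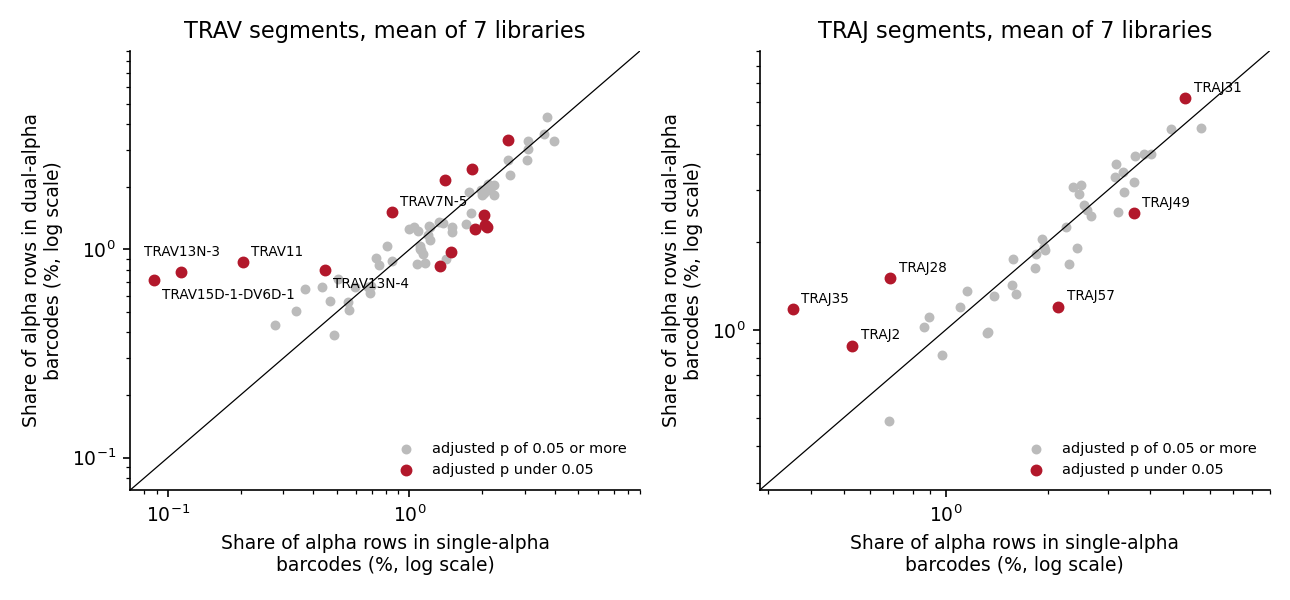
Share of alpha rows that used each TRAV (left) or TRAJ (right) segment in dual-alpha barcodes (y axis, percent, log scale) against single-alpha barcodes (x axis, percent, log scale), as means of 7 libraries, with segments at an edgeR adjusted p under 0.05 in red. TRAV15D-1-DV6D-1, TRAV13N-3, TRAV11 and TRAJ35 lie furthest above the line of equal use.

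The CDR3 of the second alpha chain was 0.428 bases longer than that of the first (41.1 against 40.6 bases, longer in 6 of 7 libraries, exact sign-flip p = 0.0469). Leaving out any library other than WT replicate 2 gave p from 0.0625 to 0.0938. Between dual-alpha and single-alpha barcodes, CDR3 lengths of alpha chains differed by 0.121 bases (longer in dual-alpha barcodes in 6 of 7 libraries, exact p = 0.0469) and those of beta chains by 0.122 bases (longer in 4 of 7, exact p = 0.219). The alpha difference, too, was no longer past the threshold when any library other than WT replicate 2 was left out (exact p from 0.0625 to 0.0938).

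Dual-alpha cells were also placed in the families of cells that share a beta chain. Barcodes whose beta chain was shared by at least 2 barcodes of a library made up 1.76% and 2.86% of dual-alpha barcodes in WT, 2.56%, 6.07% and 10.7% in Y665F het and 2.57% and 3.26% in Y665F homo. The highest values were in Y665F het replicates 2 and 3. The mean difference from single-alpha barcodes was -0.673 points (exact sign-flip p = 0.578) and was 0.0558 points without Y665F het replicate 2. Each dual-alpha barcode was compared with the other barcodes that shared its beta chain and at least 1 of its alpha chains. In 50 of 106 such comparisons (47.2%) the other barcode showed both alpha chains, and in the rest it showed only 1. Without Y665F het replicate 3 this share was 41.5%. A barcode could enter more than 1 comparison, so these are not counts of barcodes. The alpha chain was also found with a different beta chain for 2.59% of first, 3.63% of second and 3.72% of single-alpha chains (exact p = 0.719 for second against single).

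The second question was whether dual-alpha cells were spread evenly over T-cell classes. At these depths 1206 of 2581 dual-alpha barcodes fell in neither gate. In the CD4 gate the dual-alpha share was 12.1% and 11.01% in WT replicates 1 and 2, 11.4%, 10.4% and 16.3% in Y665F het replicates 1 to 3, and 11.6% and 11.7% in Y665F homo replicates 1 and 2. In the CD8 gate it was 8.99% and 10.2% in WT, 9.62%, 10.5% and 12.8% in Y665F het, and 13.2% and 11.9% in Y665F homo. The CD4 gate was higher in 4 of 7 libraries, by a mean of 1.03 points (exact sign-flip p = 0.234), so no difference between the classes was detected. The Y665F homo libraries were above both WT libraries in the CD8 gate, by 2.95 points (exact Jonckheere-Terpstra p = 0.0762), and within their range in the CD4 gate, where the difference was 0.0750 points (exact p = 0.876). The test of whether the 2 gates differed in their order by genotype gave exact p = 0.152. Among CD4 gate barcodes with a UMI of Foxp3, which marks regulatory T cells, 15 of 165 (9.09%) were dual-alpha, against 320 of 2740 (11.7%) without. The mean within-library difference had the opposite sign, 1.62 points, and turned to -4.70 points without Y665F homo replicate 1, so no direction could be given (exact sign-flip p = 0.891).

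**Figure D5:**
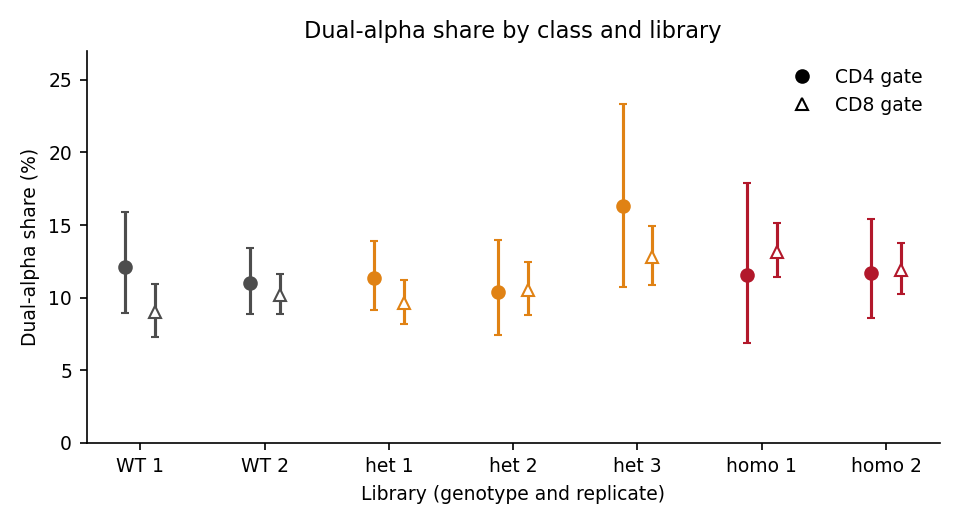
Dual-alpha share (y axis, percent) in the CD4 gate and in the CD8 gate for each library (filled circles and open triangles; x axis; WT grey, Y665F het orange, Y665F homo red), with exact 95% binomial intervals. The Y665F homo libraries reach 13.2 and 11.9% in the CD8 gate against 8.99 and 10.2% in WT, and the intervals are wide in the CD4 gate.

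Seen from the cells, CD8 barcodes made up 66.4% and 68.7% of gated dual-alpha barcodes in WT, 64.5%, 76.0% and 84.9% in Y665F het and 91.1% and 79.2% in Y665F homo (exact p = 0.152). The Y665F homo libraries were above both WT libraries. The highest shares, in Y665F het replicate 3 and Y665F homo replicate 1, were in the libraries of lowest GEX depth, where 38.1% and 39.9% of dual-alpha barcodes fell in a gate, against 46.1% or more in the others, and where 6.71% and 4.57% held a UMI of a CD4 marker, against 15.6 to 33.0%. The part of depth in these shares was not tested. In single-alpha barcodes of the same libraries the CD8 share was higher by a mean of 2.04 points (exact sign-flip p = 0.141).

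Gene expression of dual-alpha and single-alpha barcodes was compared on UMI counts summed per library, by edgeR with the library as a block. Of 9234 genes, 11 passed an adjusted p of 0.05 (0.119%), 9 higher and 2 lower in dual-alpha barcodes. Fewer passed in DESeq2 and without Y665F homo replicate 1, and more with no filter on low counts, as given in the last section. Of the 11, 8 lie in the TCR loci, where the choice of the barcodes by their alpha transcripts sets the direction, and these are given with no test. Trac was at 306 CPM in dual-alpha and 236 CPM in single-alpha barcodes, higher in 6 of 7 libraries. Among Trav genes 38 of 41 had a log2 fold change above 0, with a median of 0.63, against 8 of 20 Trbv genes, with a median of -0.05. Trav12-3 was at 29.8 CPM in dual-alpha and 10.7 CPM in single-alpha barcodes.

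Outside the TCR loci 3 genes passed, named here after their values were seen, and none had the same sign in 6 or more libraries. Ccl5, a chemokine of effector and memory T cells, was at 767 CPM in dual-alpha and 884 CPM in single-alpha barcodes, lower in 5 of 7 libraries (log2 fold change -0.32, SE 0.05, edgeR adjusted p = 2.38e-06), and was not called by DESeq2. The other two, Igkv8-24 and Igkv3-10, are immunoglobulin kappa segments of B cells that were at 0 in most dual-alpha libraries. Of the 12 genes of the TCR complex and its signaling (among them Cd3e, Cd247, Lck and Zap70), 0 passed, with a median log2 fold change of 0.02 and 9 above 0. Of 15 genes that respond to TCR signals, such as Nr4a1 and Egr2, 0 passed, with a median of -0.00430 on the log2 scale. Of 9 genes of recombination and recent thymic emigrants 5 could be tested and 0 passed. Of 5 genes of dividing cells 5 had a log2 fold change above 0, with a median of 0.26, and 0 passed. Of 3 myeloid genes tested 3 were below 0, with a median of -1.51, and 0 passed. Of 10 cytotoxic genes 9 could be tested and 1, Ccl5, passed. Of 14 STAT5 target genes named in the study 12 could be tested and 0 passed. Over all genes tested the median was 0.000506 on the log2 scale. Of 9234 genes tested, 509 had an unadjusted p under 0.05, a share close to that threshold. Few genes outside the TCR loci passed the adjustment.

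The last comparison was between genotypes within dual-alpha cells, called at an edgeR adjusted p below 0.05 with a log2 fold change beyond 1 in size. Between Y665F homo and WT, 20 of 6456 genes passed (0.31%), 12 higher and 8 lower in Y665F homo. The count was 9 without WT replicate 2, 12 without Y665F homo replicate 2 and 46 with no filter on low counts. Ccl5 was at 123 and 146 CPM in dual-alpha cells of WT, at 603, 335 and 1214 CPM in Y665F het and at 1452 and 1497 CPM in Y665F homo. The 3 genotypes did not overlap for Ccl5 (log2 fold change 3.49, SE 0.30, edgeR adjusted p = 3.32e-09 for Y665F homo against WT). Gzmm, which encodes granzyme M, was at 8.81 and 4.07 CPM in WT and at 60.3 and 35.0 CPM in Y665F homo (log2 fold change 2.996, SE 0.63, edgeR adjusted p = 0.0167). Ly6c2, which encodes a surface protein of memory CD8 T cells, was at 364 and 282 CPM in WT and at 857 and 818 CPM in Y665F homo (log2 fold change 1.45, SE 0.17, edgeR adjusted p = 3.64e-06). Ahnak, which encodes a large scaffold protein, was at 106 and 90.9 CPM in WT and at 263 and 291 CPM in Y665F homo (log2 fold change 1.60, SE 0.21, edgeR adjusted p = 9.19e-06). Each of these genes was higher in both Y665F homo libraries than in both WT libraries, and Gzmm was not past the threshold without WT replicate 2 (edgeR adjusted p = 0.460) or without either Y665F homo library (0.163 and 0.0502). Also higher were Ifitm10 (log2 fold change 2.26), Myo1f (2.16), Plac8 (1.72), Ctla2a (1.71), Tm6sf1 (1.56) and Cst7 (1.41). Bcl2 passed too, at 161 and 161 CPM in WT and 388 and 275 CPM in Y665F homo (log2 fold change 1.06, SE 0.20, edgeR adjusted p = 0.00435). Lack of overlap between genotypes was a condition for naming genes here, and all 20 called genes met it, so it is no added support. Of 7 cytotoxic genes tested, 3 passed as higher (Ccl5, Gzmm and Ctsw) and all 7 had a log2 fold change above 0, with a median log2 fold change of 1.001 against -0.00198 over all genes. Of 10 memory markers tested 2 passed as higher, and of 12 genes of the TCR complex and its signaling 0 passed. Of the STAT5 target genes named in the study 8 could be tested and 0 passed, with a median of -0.16 on the log2 scale.

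Lower in Y665F homo were Icos, a costimulatory receptor of activated and follicular helper CD4 T cells, at 82.2 and 102 CPM in WT and 30.2 and 21.9 CPM in Y665F homo (log2 fold change -1.86, SE 0.35, edgeR adjusted p = 0.00432), and Izumo1r (log2 fold change -1.16, SE 0.25). Gm20400 (log2 fold change -2.54, SE 0.53) and Arid5b (-1.35, SE 0.30) were lower as well. Icos was not past the threshold without WT replicate 2 (edgeR adjusted p = 0.176) or Y665F homo replicate 2 (0.247), and Izumo1r was not without any 1 of the 4 libraries of WT and Y665F homo (0.0781 to 0.177). Cd74, H2-Aa, H2-Ab1 and Igkc, genes of B cells and other antigen-presenting cells, were also lower (3 of 7 B-cell markers tested passed), with Cd74 at 678 and 697 CPM in WT and 284 and 188 CPM in Y665F homo. Without barcodes that held UMIs of both Cd4 and Cd8 genes, or at least 2 UMIs of Cd79a, Cd79b and Ms4a1, the log2 fold change of Cd74 went from -1.54 to -0.10 (edgeR adjusted p = 0.989) and that of H2-Aa from -1.85 to -0.20 (0.981). B-cell markers summed to 1448 to 1468 CPM in dual-alpha barcodes of WT, 580 to 943 CPM in Y665F het and 623 to 702 CPM in Y665F homo. Memory T-cell markers summed to 861 to 989 CPM in WT, 1349 to 2619 CPM in Y665F het and 2934 to 3029 CPM in Y665F homo. Without Ccl5, which is also in the cytotoxic list, and Ly6c2, both described above, the other 9 memory markers summed to 433 to 502 CPM in WT, 428 to 801 CPM in Y665F het and 619 to 719 CPM in Y665F homo. Sums for other classes in dual-alpha barcodes are given with no test. CD8 markers summed to 808 to 825 CPM in WT, 972 to 1125 CPM in Y665F het and 1043 to 1198 CPM in Y665F homo, and CD4 markers to 206 to 220, 122 to 173 and 108 to 151 CPM in the same order. Regulatory T-cell markers summed to 410 to 429, 209 to 260 and 212 to 323 CPM and naive T-cell markers to 3875 to 3971, 4373 to 4814 and 4341 to 4558 CPM. For each of these 4 lists the WT libraries did not overlap the mutant libraries. The same held for the full memory, B-cell, natural killer and gamma-delta lists, but not for the T-cell, myeloid and proliferation lists. Between Y665F homo and WT, 0 genes of the CD4, CD8, regulatory and naive lists passed. Of 9 naive markers tested, 5 had a log2 fold change above 0 and 4 below. The part of these T-cell classes in the differences was not tested, and fewer cells of a type and less RNA per cell cannot be told apart in such sums.

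Between Y665F het and WT 13 genes passed (0.201%), 5 higher and 8 lower in Y665F het. The count was 3 without WT replicate 2, 7 without Y665F het replicate 2, 5 without barcodes with signs of 2 cells as above and 35 with no filter on low counts. Of the 13, 8 also passed between Y665F homo and WT, 5 higher and 3 lower, and both comparisons share the WT libraries. Ccl5 was higher by 2.36 on the log2 scale (SE 0.29) in Y665F het, with adjusted p = 8.42e-06 in edgeR. Ctla4 was at 49.9 and 65.1 CPM in WT and 22.8, 7.61 and 19.7 CPM in Y665F het (log2 fold change -1.62, SE 0.32, edgeR adjusted p = 0.0124), a call lost without WT replicate 2 (0.678) or Y665F het replicate 2 (0.102). DESeq2 called 3 genes here and 11 between Y665F homo and WT. Whether the effect of Y665F homo differed between dual-alpha and single-alpha barcodes was tested by edgeR's interaction term, which called 4 of 9234 genes (0.0433%). None of the 20 genes above was among them, and their smallest adjusted p was 0.999. Ccl5 was at 166 CPM in single-alpha barcodes of WT and 1642 CPM in those of Y665F homo, beside 135 and 1475 CPM in dual-alpha barcodes.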

How the data were processed

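Per the file headers and labels, the authors deposited UMI counts per gene and barcode for each gene expression (GEX) library and tables of assembled TCR chains with UMI counts, and the submitters' processing notes name Cell Ranger 5.0, Seurat 4.0 and mm10. The labels name a 3′ kit and the study's methods a 5′ kit with TCR enrichment. The labels give each library's genotype and replicate number. All deposited chain rows were productive and all were used. TRAV, TRAJ and TRBV segments were matched by name to GENCODE (GRCm38, the sequence of mm10): all 88 TRAV and 43 TRAJ segments and 21 of 22 TRBV segments matched. GEX barcodes needed 200 genes and at most 10% mitochondrial UMIs, and no doublet caller was run. Libraries were compared by exact two-sided permutation tests: Jonckheere-Terpstra over 210 labelings by genotype, and sign flips over 128 signings within libraries. Counts of segments, and UMI counts summed per library and kind of barcode, were tested with edgeR 4.0.16 (quasi-likelihood, R 4.3.3) after a filter on low counts, with Benjamini-Hochberg adjustment over all features tested, and with DESeq2 1.42.0 as an alternative. Scripts were tested on simulated data. Named segments were the 5 most used and up to 10 with the smallest p among those called, and named genes were up to 10 per direction with the largest fold change among called genes of the same sign in 6 libraries or without overlap between genotypes, besides members of fixed lists. Bcl2 was named beyond this rule, after its value was seen. Replicate numbers were not used to pair the libraries in the main tests. The members and lists were chosen with earlier results of these data known. Spleen and bone marrow libraries were not used here.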

Additional observations from a re-analysis of the deposited data

Results flagged for a closer look

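A test of the interaction in edgeR found that 4 of 9234 genes differed in the effect of Y665F homo against WT between dual-alpha and single-alpha barcodes, and DESeq2 called 0 of them. The interaction was -11.5 on the log2 scale for Igkv8-24, an immunoglobulin kappa segment, which was counted 7 times in dual-alpha barcodes of WT replicate 2 and 0 times in those of every other library, and 283 times in single-alpha barcodes of Y665F homo replicate 1. It was 5.82 for Igkv1-110, another such segment, with 14 of its 16 counts in dual-alpha barcodes in Y665F homo replicate 2. The interaction was 1.83 for Hist1h1b, a histone gene of dividing cells, which was at 20.6 and 43.4 CPM in dual-alpha barcodes of WT and 34.5 and 101 CPM in those of Y665F homo, so that the genotypes overlapped. For Srm, which encodes spermidine synthase, it was -1.08, with 129 and 110 CPM in dual-alpha barcodes of WT and 81.9 and 94.0 CPM in those of Y665F homo, against 77.4 and 72.3 CPM and 141 and 109 CPM in single-alpha barcodes.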

How the results depend on the processing

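With few libraries per genotype, and with exact tests whose smallest p over 5 libraries is 0.0625 or 0.0667, several results could not pass once libraries were left out. The share by genotype (Y665F homo minus WT) was 1.58 points with at least 3 UMIs per row and 1.17 without both shallow GEX libraries (added after seeing the data), and 1.17 to 2.43 with each library left out. The correlation of deviations between same-numbered libraries was -0.0679 to 0.0339. With 2 libraries each in WT and Y665F homo these deviations mirror each other, so the check cannot decide whether replicate numbers pair the libraries. With the replicate number as a block the share difference was 1.80 points with exact p = 0.0556, the smallest possible. The block gave 5 calls for Y665F het against WT. Without both shallow GEX libraries the TRAJ distance difference was -7.22 positions, the log2 ratio of GEX UMIs 0.0647, the CDR3 length difference 0.464 bases and Igkv8-24 reversed to 0.0779. The Foxp3 difference (main value 1.62 points) was -2.48 with at least 500 genes and -2.25 without the shallow libraries. Leaving out each library gave -4.70 to 4.71 points for Foxp3, 0.366 to 0.529 bases for CDR3 length and -0.983 to 0.0558 points for the expanded share. It gave 8 to 14 TRAV calls (8 without WT replicate 2), 7 to 14 expression calls for dual-alpha against single-alpha (7 without Y665F homo replicate 1), 9 to 26 for Y665F homo against WT (9 without WT replicate 2) and 3 to 15 for Y665F het against WT (3 without WT replicate 2). DESeq2 called 9 TRAV segments, and 6, 11 and 3 genes in these 3 comparisons in the same order, against 74, 46 and 35 with no filter on low counts, and 0 in the interaction test. Without barcodes with signs of 2 cells, Y665F het against WT had 5 calls. The cause of these changes was not tested.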
